A study of Mus musculus with 8 samples.

Results

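The transcripts examined are 10 genes of the unfolded protein response and the integrated stress response, chosen by gene symbol from a table of 46078 genes. The chaperone and XBP1 side holds 4 of them (Hspa5, Dnajb9, Herpud1 and Xbp1). The ATF4 side holds the other 6 (Atf4, Atf3, Ddit3, Trib3, Asns and Chac1). All 10 passed the filter on low counts and were among the 14654 genes tested. RNA-seq read counts came from mouse livers with intact Rbfox2 (WT, 5 mice) and from livers in which Rbfox2, a regulator of pre-mRNA splicing, was deleted (KO, 3 mice). Both groups received 30% (w/v) fructose in drinking water with a control diet for 22 weeks, and livers were taken after fasting. According to the study's methods, both groups carried loxP-flanked Rbfox2 alleles and only the KO mice carried Cre driven by the albumin promoter, which directs the deletion to hepatocytes while most other liver cells keep the gene. The sample labels give no age or sex. The comparison addresses how loss of the splicing regulator from hepatocytes alters liver transcripts under a sugar-rich diet.

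Hepatocytes secrete large amounts of plasma protein and depend on the folding machinery of the endoplasmic reticulum (ER). When unfolded protein builds up there, the sensors IRE1, ATF6 and PERK switch on the unfolded protein response: IRE1 splices Xbp1 mRNA, and the XBP1 and ATF6 proteins raise chaperones and degradation factors. PERK belongs to a group of kinases that also sense amino acid shortage, viral RNA or heme shortage, and that all phosphorylate eIF2α. This slows translation in general but favours translation of ATF4, which raises genes of amino acid supply, redox balance and, under lasting stress, cell death. XBP1 splicing, eIF2α phosphorylation and ATF4 protein are not seen in counts per gene.

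Target genes of both arms are known to carry short promoter elements, which are shown first because they differ between the arms. The windows searched were RefSeq promoters of GRCm38.p6, from 250 bases before to 50 bases after the annotated start, and all 10 genes had one. The letters searched on both strands were the ER stress response element (ERSE: CCAAT, then 9 bases of any kind, then CCACG), its second form (ERSE-II: ATTGG, 1 base of any kind, then CCACG), the UPR element (UPRE: TGACGTGG) and the C/EBP-ATF response element (CARE: TGATGNAA), the site at which ATF4 pairs with C/EBP proteins. Below are the 200 bases before the RefSeq start of 5 members and of Derl3, a factor that moves misfolded protein out of the ER, each read 5′ to 3′ on the strand of the gene. Capitals mark the matched elements.
Hspa5: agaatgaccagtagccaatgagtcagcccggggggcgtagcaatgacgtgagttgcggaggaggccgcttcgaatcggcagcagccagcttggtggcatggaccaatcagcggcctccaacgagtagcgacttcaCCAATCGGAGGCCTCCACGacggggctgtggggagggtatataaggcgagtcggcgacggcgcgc
Herpud1: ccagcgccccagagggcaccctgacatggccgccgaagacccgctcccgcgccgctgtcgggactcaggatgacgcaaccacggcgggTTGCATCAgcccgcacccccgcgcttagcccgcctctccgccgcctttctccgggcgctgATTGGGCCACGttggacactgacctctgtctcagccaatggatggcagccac
Derl3: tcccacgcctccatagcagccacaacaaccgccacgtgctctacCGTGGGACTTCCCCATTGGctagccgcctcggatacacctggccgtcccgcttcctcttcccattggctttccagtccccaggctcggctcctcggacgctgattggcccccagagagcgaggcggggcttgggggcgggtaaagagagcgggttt
Atf3: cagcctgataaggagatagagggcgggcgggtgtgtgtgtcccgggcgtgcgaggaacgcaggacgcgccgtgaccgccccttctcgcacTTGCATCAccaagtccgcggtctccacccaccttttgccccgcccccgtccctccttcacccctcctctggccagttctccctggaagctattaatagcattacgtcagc
Asns: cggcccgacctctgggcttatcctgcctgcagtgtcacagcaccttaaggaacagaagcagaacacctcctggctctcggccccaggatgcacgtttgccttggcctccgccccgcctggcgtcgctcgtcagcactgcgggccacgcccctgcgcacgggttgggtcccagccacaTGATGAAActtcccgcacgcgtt
Chac1: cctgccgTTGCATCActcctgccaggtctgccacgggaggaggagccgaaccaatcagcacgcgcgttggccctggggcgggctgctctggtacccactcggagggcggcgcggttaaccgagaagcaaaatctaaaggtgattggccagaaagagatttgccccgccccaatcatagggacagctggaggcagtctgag
These windows lie at chr2:34771890-34772089 on the plus strand (Hspa5), chr8:94386229-94386428 on the plus strand (Herpud1), chr10:75893198-75893397 on the plus strand (Derl3), chr1:191183334-191183533 on the minus strand (Atf3), chr6:7693210-7693409 on the minus strand (Asns) and chr2:119351042-119351241 on the plus strand (Chac1). The GENCODE gene models of Hspa5, Atf3, Asns and Chac1 begin before the RefSeq start, so parts of these windows lie inside them.

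The ERSE of Hspa5 begins 65 bases before its start, and only 39 of 32851 promoter windows (0.119%) held one. Herpud1 carried the rarer ERSE-II 52 bases before its start, present in 0.0365% of windows, and a CARE 112 bases before it. The CARE was found in 4 of the 6 ATF4-side genes, against 3.97% of all windows: Asns at 23, Atf3 at 110 and Chac1 at 193 bases before the start, and Trib3 at 15 bases after it. Dnajb9, Xbp1, Atf4 and Ddit3 held none of the 4 elements in these windows, and the UPRE, in 0.676% of all windows, was in none of the 10. Among 20 other genes of ER folding, 14 had a window and 6 of these held an ERSE. Of the 12 tRNA synthetase genes, 7 had a window and 5 of these held a CARE. A match is a description of the letters and does not show binding.

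**Figure D1:**
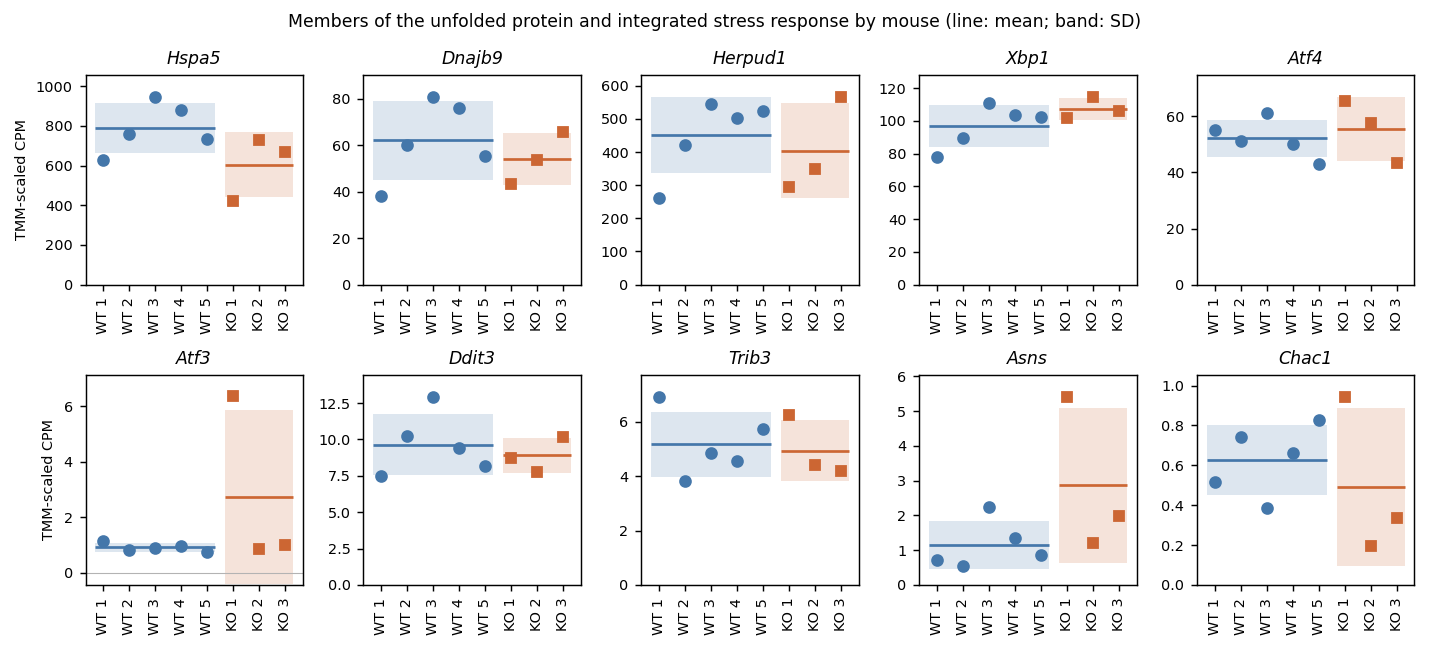
Level of each of the 10 genes in every liver, in TMM-scaled CPM (read counts scaled by effective library size, linear axis). Circles are the 5 WT mice, squares the 3 KO mice, lines the group means and bands 1 SD on either side. The KO values of every gene overlap the WT range, and in Atf3 and Asns KO 1 stands above the 7 other livers, at 6.37 and 5.40 CPM.

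The genes covered a wide span of abundance. Levels are compared between genes as CPM per kilobase of exon in WT livers, with SD over 5 mice. Herpud1 (193 ± 49.5) and Hspa5 (187 ± 29.7) were the most abundant and differed by less than their spread. Xbp1 (29.8 ± 3.99), Dnajb9 (24.3 ± 6.71) and Atf4 (22.1 ± 2.82) followed. Xbp1 and Dnajb9, and Dnajb9 and Atf4, differed by less than the larger SD of the pair, while Xbp1 was above Atf4 by more than either SD. Ddit3 (5.62 ± 1.23) and Trib3 (2.44 ± 0.558) were lower. Atf3 (0.429 ± 0.0708), Asns (0.418 ± 0.252) and Chac1 (0.383 ± 0.108) were the least abundant and did not differ beyond their spread, with between 5 and 203 reads per library.

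None of the 10 transcripts passed the test between KO and WT livers. edgeR's quasi-likelihood test with Benjamini-Hochberg adjustment called 0 of them, and 0 of all 14654 genes (0% called). DESeq2 also called 0 of the 10 at an adjusted p of 0.05, against 0.403% of all genes, and gave Atf3 no p. At an unadjusted edgeR p of 0.05, 2 of the 10 were higher in KO (Atf3 and Asns; 2.41% of all genes) and 0 were lower (2.33% of all genes). For 0 of the 10 did the 3 KO values lie wholly above the WT values (1.89% of all genes) or wholly below them (1.82%). Rbfox2 itself (ENSMUSG00000033565) had 49.0% of its WT level, at 9.28 ± 2.84 CPM (SD, n = 3) against 18.9 ± 3.39 CPM (SD, n = 5), with all 3 KO livers below all 5 WT livers. Its exact permutation p was 0.0179, the smallest that 56 splits of 8 livers allow, and its edgeR adjusted p was 0.328, against a DESeq2 adjusted p of 0.0019. In bulk tissue, fewer cells of a type and less RNA per cell cannot be told apart.

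The libraries held 24829693 to 37823155 counts, and 3 counts correspond to 0.0839 to 0.118 CPM. The 10 hepatocyte markers were detected in every library, with sums of 84569 to 95496 CPM in WT and 76135 to 92581 CPM in KO. KO 1 stood apart: 12 pancreatic acinar genes summed to 463 CPM there, all 12 at their highest of the 8 libraries, against 4.78 to 17.2 CPM in WT (highest in WT 1), 5.94 CPM in KO 2 and 4.87 CPM in KO 3. The sum of 9 fasting genes was lowest in KO 1 (7769 CPM), between 10340 and 11666 CPM in WT, and highest in KO 2 and KO 3 (14033 and 15005 CPM). Other lists also differed between libraries: 7 skeletal muscle genes summed to 170 CPM in KO 1, 201 CPM in WT 4 and 296 CPM in WT 5, against 1.02 to 34.3 CPM in the other 5. The sum of 6 Kupffer cell genes was 247 CPM in KO 1, 189 CPM in KO 2 and 253 CPM in KO 3, against 177 to 202 CPM in WT. These 6 genes did not move together. Only 1 of them, Marco, was above every WT liver in all 3 KO livers (1.89% of all genes). Clec4f had 75.5 CPM in KO 1 and 68.9 CPM in KO 3, against 65.6 to 76.3 CPM in WT, and Timd4 was lowest of the 8 livers in KO 1 (3.73 CPM). The sum of 6 stellate cell genes was highest in KO 1, at 259 CPM, and these genes did not move together either. In KO 1 Dcn (166 CPM), Rgs5 (37.0 CPM) and Col1a1 (10.5 CPM) were above every WT liver. Lrat (9.69 CPM) and Des (14.1 CPM) lay within the WT range there, and Reln (21.5 CPM) was below it. The part of these lists in the results below was not tested. Fold changes that leaving out KO 1 moved by over 1.5 times are given with and without it.

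Hspa5 (ENSMUSG00000026864; GRCm38 chr2:34771970-34777547, plus strand) encodes BiP, the main Hsp70 chaperone of the ER and binds the stress sensors in their inactive state. It had 626, 761, 945, 880 and 732 CPM in WT 1 to 5, and 419, 729 and 667 CPM in KO 1 to 3. KO 1 was the lowest liver, and KO 2 and KO 3 lay inside the WT range. The fitted log2 fold change was -0.38 ± 0.20 (SE; 95% interval -0.82 to 0.05), with an unadjusted edgeR p of 0.0791 and a two-sided exact permutation p of 0.143. Without KO 1 the log2 fold change was -0.18.

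Dnajb9 (ENSMUSG00000014905; chr12:44205559-44210326, minus strand) encodes ERdj4, a cochaperone of BiP. Its levels were 38.002, 59.9, 80.6, 76.1 and 55.3 CPM in WT and 43.1, 53.7 and 65.6 CPM in KO, so the KO livers lay within the WT range. Its log2 fold change was -0.19 ± 0.23 (95% interval -0.72 to 0.33), and -0.06 without KO 1. Of the 50-base words in its longest transcript, 5.80% also occurred in transcripts of other genes, most in Gm6568, and how the counting split such reads was not stated. The other 9 genes shared none.

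Herpud1 (ENSMUSG00000031770; chr8:94386438-94395377, plus strand) encodes a membrane protein of the degradation complex. It reached 262, 422, 545, 504 and 523 CPM in WT and 296, 348 and 566 CPM in KO, with WT 1 the lowest and KO 3 the highest liver. The log2 fold change of -0.16 ± 0.27 (95% interval -0.76 to 0.44) became 0.01 without KO 1. An antisense gene, Gm15890, overlaps it, and the strand setting of the counting was not stated.

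Xbp1 (ENSMUSG00000020484; chr11:5520659-5525893, plus strand), the transcription factor of the IRE1 branch, differed least from liver to liver on this side, by 1.47-fold between the highest and the lowest. WT livers had 78.1, 89.4, 111, 103 and 102 CPM and KO livers 101, 115 and 106 CPM. KO 1 and KO 3 lay within the WT range and KO 2 just above it. Its log2 fold change was 0.15 ± 0.12 (95% interval -0.12 to 0.42), opposite in sign to the other 3 genes of its side. These counts pool spliced and unspliced Xbp1 mRNA.

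Atf4 (ENSMUSG00000042406; chr15:80255184-80257541, plus strand) is the transcription factor whose translation eIF2α phosphorylation favours. Its mRNA was at 55.1, 51.3, 61.1, 50.3 and 43.1 CPM in WT and 65.6, 57.8 and 43.3 CPM in KO. KO 1 was the highest liver and KO 3 was close to the lowest. The log2 fold change was 0.09 ± 0.15 (95% interval -0.24 to 0.42), and -0.05 without KO 1.

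Atf3 (ENSMUSG00000026628; chr1:191170296-191218039, minus strand), a stress-induced factor downstream of ATF4, was high in a single liver. The WT values were 1.14, 0.840, 0.914, 0.979 and 0.739 CPM, and the KO values 6.37, 0.865 and 1.01 CPM. KO 1 had 203 reads, while KO 2 and KO 3, with 22 and 36 reads, lay within the WT range of levels. The log2 fold change of 1.58 ± 0.60 had an edgeR adjusted p of 0.954 and an exact permutation p of 0.179. Without KO 1 it was 0.02.

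Asns (ENSMUSG00000029752; chr6:7675169-7693254, minus strand) encodes asparagine synthetase, a classic amino acid response gene. WT livers had 0.702, 0.549, 2.25, 1.36 and 0.858 CPM, and KO livers 5.40, 1.22 and 1.99 CPM. KO 1, with 172 reads, was again the only KO liver above the WT range. The log2 fold change was 1.33 ± 0.55 with an unadjusted edgeR p of 0.0365, an adjusted p of 0.99997 and an exact permutation p of 0.107. Without KO 1 it was 0.50. The liver with these Atf3 and Asns levels is the one with 463 CPM of pancreatic acinar transcripts, and the part of those transcripts in either value was not tested.

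Ddit3 (ENSMUSG00000025408; chr10:127290774-127296288, plus strand) encodes CHOP, a factor linked to cell death under lasting stress. Its levels were 7.46, 10.2, 12.9, 9.40 and 8.19 CPM in WT and 8.75, 7.79 and 10.2 CPM in KO, with all KO livers inside the WT range. KO over WT gave a log2 fold change of -0.11 ± 0.18 (95% interval -0.50 to 0.28). Mars, on the other strand, overlaps Ddit3, so their reads may not be told apart if the counting did not use strand.

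Trib3 (ENSMUSG00000032715; chr2:152337422-152344032, minus strand), a pseudokinase induced by ATF4 and CHOP, had 6.91, 3.81, 4.85, 4.58 and 5.74 CPM in WT and 6.24, 4.40 and 4.20 CPM in KO. The KO livers fell inside the WT range, with a log2 fold change of -0.06 ± 0.21 (95% interval -0.53 to 0.40), and -0.27 without KO 1. With library totals in place of TMM scaling the fitted values of Ddit3 and Trib3 turned to 0.02 and 0.08, as the median of all genes moved to 0.12 and the share of genes fitted lower went from 49.8% to 26.2%.

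Chac1 (ENSMUSG00000027313; chr2:119351229-119354381, plus strand) encodes an enzyme that breaks down glutathione. It had 0.517, 0.743, 0.386, 0.664 and 0.828 CPM in WT and 0.941, 0.197 and 0.336 CPM in KO. Its 3 KO livers were the highest and the 2 lowest of all 8. Fitted over all livers, the log2 fold change was -0.34 ± 0.47, and it was -1.21 without KO 1, where the unadjusted edgeR p was 0.0211 and the adjusted p 0.9998. KO 2 held 5 reads of it.

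**Figure D2:**
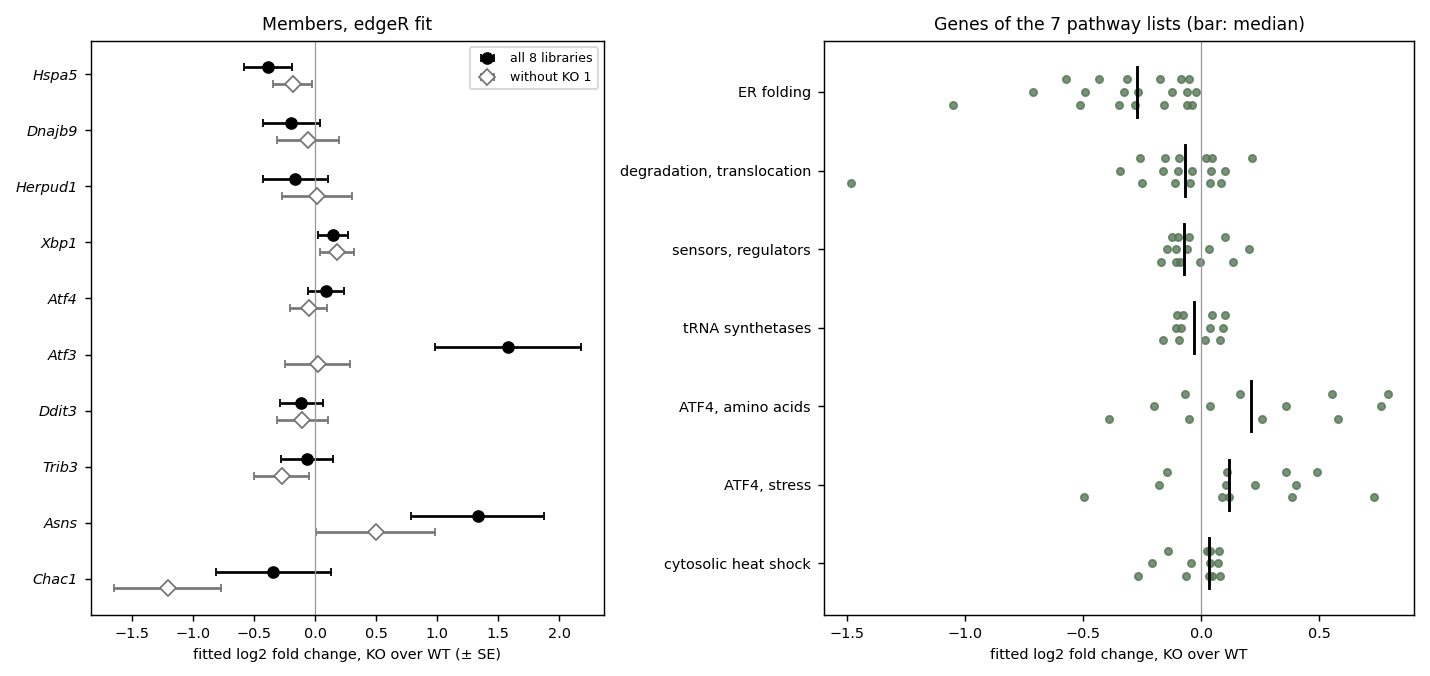
Fitted log2 fold changes, KO over WT, from edgeR: left, the 10 genes with SE, with all 8 libraries (filled) and without KO 1 (open); right, every tested gene of the 7 pathway lists, with the median as a bar. Atf3 moves from 1.58 to 0.02 and Chac1 from -0.34 to -1.21 when KO 1 is left out, and all 20 ER folding genes lie below 0.

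The sides were then set against each other. On the chaperone and XBP1 side 3 of 4 genes had a fitted value below 0 with all livers (49.8% of all genes), and the median of their log2 fold changes was -0.18. These were 2 of 4 without KO 1 (53.2% of all genes), with a median of -0.02. For the ATF4 side these were 3 of 6 with a median of 0.01, and 4 of 6 with a median of -0.08. KO 1 was the highest of the 8 livers for 4 of the 6 ATF4-side genes (Atf4, Atf3, Asns and Chac1), against 17.7% of all genes, and the highest for 0 of the 4 chaperone and XBP1 genes. It was the lowest liver for Hspa5 alone among the 10 (16.8% of all genes).

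The wider pathway was followed in 7 lists of 105 genes, 102 of them tested. The 20 ER folding genes (chaperones, cochaperones, disulfide isomerases and oxidases of the ER) all had a fitted value below 0, where 49.8% of all genes did. With library totals 14 of 20 did, where 26.2% of all genes did. Their median log2 fold change was -0.27, 0 of 20 passed the edgeR or DESeq2 adjusted threshold, and 4 were lower at an unadjusted edgeR p of 0.05 (Pdia4, Manf, Pdia6 and Creld2; 2.33% of all genes). KO 1 was the lowest liver for 13 of the 20, against 16.8% of all genes, and WT 1 for 6, against 19.4% of all genes. KO 1 and WT 1 were the lowest pair for 12, a count for which the share over all genes was not determined. Without KO 1, 17 of 20 were fitted lower (53.2% of all genes) with a median of -0.11. In that fit 1 was at an unadjusted edgeR p of 0.05 (Pdia4), as were 570 of all 14867 genes in either direction. KO 1 and WT 1, the libraries with the highest pancreatic sums, were also left out together. Then 20 of 20 were fitted lower (52.2% of all genes), with a median of -0.19 relative to all genes. Of the 20, 7 were at that unadjusted p, as were 715 of all 14800 genes in either direction. WT 1 had the lowest mean log2 CPM of this list among WT livers (6.07), so leaving it out raises the WT level.

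Pdia4, a disulfide isomerase, showed the smallest p of that list. It had 116, 168, 178, 180 and 161 CPM in WT and 78.6, 129 and 116 CPM in KO. Every KO liver was below WT 2 to 5 and only WT 1 overlapped them. Its log2 fold change was -0.57 ± 0.19, with an edgeR adjusted p of 0.882. Manf, a secreted ER stress protein that binds BiP, was at 65.3, 81.8, 100, 92.4 and 72.4 CPM in WT and 40.9, 67.5 and 67.2 CPM in KO, with a log2 fold change of -0.49 ± 0.19 that was -0.30 without KO 1. P4hb, the most abundant gene of the list, had 824 to 942 CPM in WT, 840 to 945 CPM in KO and a log2 fold change of -0.05, or -0.03 without KO 1.

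Of 18 genes of ER-associated degradation and translocation, 11 were fitted lower (49.8% of all genes), with a median of -0.07. At an unadjusted edgeR p of 0.05 there were 0, against 2.41% of all genes higher and 2.33% lower. Derl3, whose ERSE is printed above, had the smallest p there. Its levels were 0.406, 2.36, 3.55, 3.56 and 3.02 CPM in WT and 0.251, 0.708 and 1.76 CPM in KO, and WT 1 overlapped the KO livers. This gave a log2 fold change of -1.48 ± 0.73, with an unadjusted edgeR p of 0.0739, and it was -1.04 without KO 1. Sec61b, a subunit of the translocon, had a log2 fold change of -0.26 ± 0.13.

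The sensors and regulators, 14 genes, had a median of -0.07 with 10 fitted lower (49.8% of all genes). At an unadjusted edgeR p of 0.05 there were 0, against 2.41% of all genes higher and 2.33% lower. Without KO 1, 9 were fitted lower (53.2% of all genes) and 1 was at that p, as were 570 of all 14867 genes in either direction. This was Eif2ak2, which encodes the eIF2α kinase that senses viral RNA (log2 fold change -0.35 without KO 1, named after its value was seen). With all livers its log2 fold change was -0.11 ± 0.17, with an unadjusted edgeR p of 0.544. Creb3l3, which encodes the liver-enriched ER membrane factor CREBH, was at 251 to 304 CPM in the WT livers, and KO 1 to 3 had 295, 343 and 298 CPM, with a log2 fold change of 0.20 ± 0.10 and an unadjusted edgeR p of 0.0781. Mbtps1, the protease that begins the cleavage of ATF6, was at -0.17 ± 0.12.

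Among ATF4 targets of amino acid synthesis and transport, 12 of 14 were tested, 8 were fitted higher and 2 were higher at an unadjusted p of 0.05 (Cth and Slc1a4; 2.41% of all genes), with a median of 0.21. KO 1 was the highest liver for 5 of the 12 (17.7% of all genes). Without KO 1, 8 of the 12 were instead fitted lower (53.2% of all genes), with a median of -0.11. Cth, which makes cysteine from cystathionine, had 413, 395, 233, 246 and 276 CPM in WT and 514, 355 and 531 CPM in KO, so KO 2 lay within the WT range. Its log2 fold change was 0.58 ± 0.22, with an edgeR adjusted p of 0.954. Slc1a4, a neutral amino acid transporter, was at 1.72 to 3.25 CPM in the WT livers, and KO 1 to 3 had 7.03, 3.15 and 2.57 CPM. Its log2 fold change of 0.76 became 0.18 without KO 1.

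The ATF4 stress targets held 13 tested genes of 14, with a median of 0.12, 10 fitted higher and 1 higher at an unadjusted p of 0.05 (Fgf21, 2.41% of all genes). KO 1 was the highest liver for 6 of the 13 (17.7% of all genes). Fitted lower were 3 of 13 with all livers (49.8% of all genes) and 6 of 13 without KO 1 (53.2% of all genes), where the median was 0.03 and 0 genes were at that unadjusted p. Fgf21, the hepatokine of fasting and sugar intake, had 11.1, 6.75, 12.4, 10.03 and 15.8 CPM in WT and 24.3, 17.6 and 14.0 CPM in KO, with only WT 5 reaching into the KO range. Its log2 fold change was 0.73 ± 0.25, with an edgeR adjusted p of 0.894 and an exact permutation p of 0.0536, and it was 0.49 without KO 1. Atf5, an ATF4-related factor, was at 0.36 ± 0.18 and at 0.09 without KO 1. It had 711 CPM in KO 1, 483 CPM in KO 2 and 402 CPM in KO 3, against 356 to 480 CPM in WT.

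The 2 remaining lists had medians near 0 with all livers. The 12 tRNA synthetases split 6 and 6 with a median of -0.03, with Wars at -0.16 ± 0.11 and Aars at -0.11 ± 0.11. Without KO 1, 9 of the 12 were fitted lower (53.2% of all genes), with a median of -0.02, and Wars was at -0.27 and Aars at -0.03. The 13 cytosolic heat shock genes had a median of 0.03 with 8 fitted higher, and without KO 1 a median of 0.11 with 13 fitted higher and 0 lower (53.2% of all genes were lower). Of these Hspa1a was at -0.27 ± 0.35, Hspd1 at 0.07 ± 0.11 and Hspa8, the most abundant, at 0.08 ± 0.12. Without KO 1 they were at 0.06, 0.11 and 0.15. In both lists, with or without KO 1, 0 genes were at an unadjusted p of 0.05. None of the 7 lists held a gene past the adjusted threshold of edgeR or DESeq2.

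**Figure D3:**
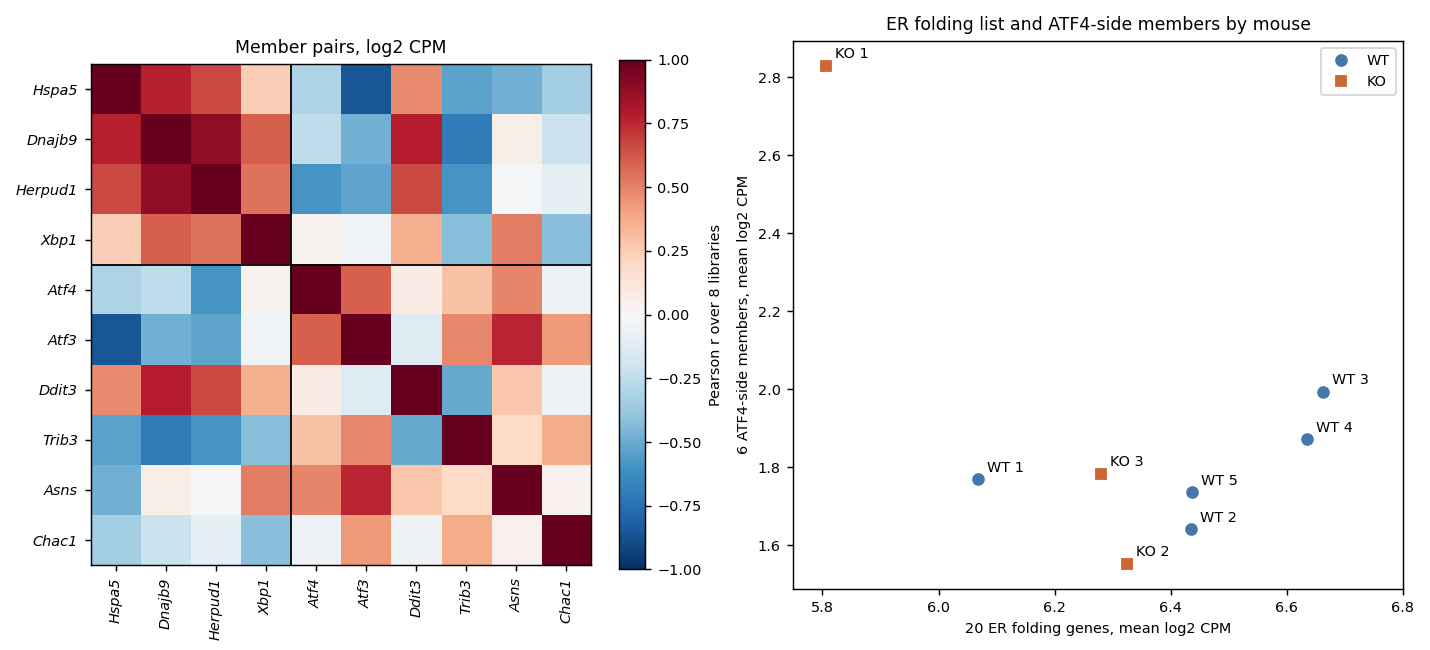
Left, Pearson r of log2 CPM over the 8 libraries for every pair of the 10 genes, with lines between the chaperone and ATF4 sides; right, each liver by its mean log2 CPM of 20 ER folding genes and of the 6 ATF4-side genes. KO 1 lies apart at 5.81 and 2.83, while the 7 other livers span 6.07 to 6.66 and 1.55 to 1.99.

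The genes were next compared with each other from liver to liver, over 45 pairs and 8 libraries. No pair passed an adjusted p of 0.05, by Pearson's r or Spearman's rho with exact permutation tests. Within the chaperone and XBP1 side all 6 pairs had a positive r, with a median of 0.63. The highest was Dnajb9 with Herpud1, at r = 0.89 (exact permutation p = 0.0034, adjusted p = 0.153), rho = 0.83 (exact permutation p = 0.0154, adjusted p = 0.231) and r = 0.79 without WT 1 and WT 3. The pairs with Xbp1 were less stable. Its r with Dnajb9 went from 0.60 to -0.04 without WT 1 and WT 3. With Herpud1 it went from 0.55 to -0.03 without WT 1 and KO 1, and with Hspa5 from 0.24 to 0.42 without KO 1 and WT 3. Within the ATF4 side 11 of 15 pairs were positive, with a median r of 0.28. Across the sides 7 of 24 pairs were positive, with a median of -0.28. That summary depends in part on KO 1. Without KO 1, r changed sign for Hspa5 with Asns (from -0.48 to 0.44) and with Atf4 (from -0.31 to 0.38). Other pairs stayed negative, such as Hspa5 with Trib3 (from -0.53 to -0.34) and Herpud1 with Atf4 (from -0.59 to -0.45).

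Ddit3, of the ATF4 side, had a positive r with all 4 chaperone and XBP1 genes. Its r was 0.47 with Hspa5, 0.78 with Dnajb9, 0.66 with Herpud1 and 0.35 with Xbp1, but -0.51 with Trib3. The pair with Dnajb9 had an exact permutation p of 0.0209 and an adjusted p of 0.313, and its r was 0.50 without WT 1 and WT 3. The most negative pair of all was Hspa5 with Atf3, at r = -0.86 (exact permutation p = 0.0325, adjusted p = 0.366), which was -0.38 without KO 1 and WT 3. Atf3 with Asns had r = 0.77 (exact permutation p = 0.0449, adjusted p = 0.383), and r = 0.00 without KO 1 and WT 5.

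The genes whose pattern was most like that of Hspa5 over the 8 libraries, by Pearson's r of log2 CPM among 14653 others, were Manf (0.99), Timm29 (0.98), Stard4 (0.98), Creld2 (0.97) and Nr1h4 (0.97). Of the 20 nearest genes, 7 were on the ER folding list, which holds 20 of the 14653 genes ranked. The rest were on none of the lists. They included the major urinary protein genes Mup10 (0.96) and Mup1 (0.95), named after their values were seen. Dnajb9 ranked 461 and Xbp1 4772 in that order, which pools both genotypes. With the group means removed, r with Hspa5 went from 0.78 to 0.82 for Dnajb9 and from 0.24 to 0.72 for Xbp1. For Trib3 the nearest were Thap6 (0.97), Gm38120 (0.96), Oas1b (0.96), Pheta1 (0.95) and Snx24 (0.93), and 0 of its 20 nearest were on any list. Atf4 ranked 4223 and Ddit3 12345. The order of livers by the ER folding list mixed the genotypes: the mean log2 CPM of that list was 6.66 in WT 3 and 6.64 in WT 4, 6.44 in WT 2 and WT 5, 6.32 in KO 2 and 6.28 in KO 3, 6.07 in WT 1 and 5.81 in KO 1.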

How the data were processed

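Livers of 5 WT and 3 Rbfox2 KO mice were profiled by poly(A)-selected, paired-end RNA-seq. The authors deposited unnormalized counts of reads for each Ensembl gene. They aligned reads to GRCm38 with TopHat2 2.0.11 and assigned them to genes with featureCounts. Strand and multi-mapping settings of the counting are not given in the sources used here. Groups and numbers came from the sample labels, 0 columns were left without a sample, and symbols and lengths came from GENCODE M21. No pair of libraries within a group agreed within sampling noise (chi-square per degree of freedom of 45.9 or more). The labels call these separate samples but do not name the animals, so p-values measure the spread between these samples.

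Genes were filtered with filterByExpr and tested in edgeR 4.0.16 (R 4.3.3) by its quasi-likelihood F test with robust estimation, TMM scaling and a design of genotype alone. P-values were adjusted by Benjamini-Hochberg over 14654 genes, with a threshold of 0.05. CPM are TMM-scaled. The SE is the log2 fold change divided by the square root of F, and log2 CPM used a prior count of 2. Means of CPM were compared by two-sided exact permutation over 56 splits. Intervals and floors of 3 counts cover fitted or counting error only, as reads carry no molecular identifiers. Alternatives were DESeq2 1.42.0, limma-voom 3.58.1, other scalings and filters, left-out libraries and a replicate block. Leaving the Mup genes out was chosen after seeing the data. The procedure was tested on simulated data.

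The 10 genes and the lists were chosen with earlier results of these data known. Named genes were the 10, Rbfox2, in each list the 2 with the smallest p and the most abundant, and the 5 nearest to Hspa5 and to Trib3; Pdia6 and Creld2 were named after their values were seen. The values of 1 gene that this rule names are not reported here. Promoters are from RefSeq (GRCm38.p6).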

Additional observations from a re-analysis of the deposited data

Results flagged for a closer look

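Among the 5 WT livers, P4hb, a disulfide isomerase of the ER, had a library far from the others: WT 5 had 824 CPM, against 915 to 942 CPM in the other 4, a gap of 0.776 of the whole range, where 0.71 is Dixon's 95% critical value for 5 samples. It was 1 of 37 genes so examined, and chance alone would give about 1.85. None of the 10 genes of the unfolded protein and integrated stress response passed this limit among WT livers; groups of 3, as in KO, were not examined.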

How the results depend on the processing

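No fit called any of the 10 genes at an adjusted p of 0.05. The count of 2 members at an unadjusted p of 0.05 was 1 without the filter on low counts (Atf3), with the stricter filter and with limma-voom (Asns both times), 1 without KO 1 and WT 1 (Chac1), 0 with limma-voom quality weights and 0 to 3 when 1 library was left out (0 without WT 2 or WT 5). With DESeq2 it was 2, Asns and Hspa5. The count of 4 ER folding genes lower at that p was 7 with quality weights, 7 without KO 1 and WT 1, and 1 (without WT 3, WT 4 or KO 1) to 9 (without WT 1) when 1 library was left out. Over all genes edgeR called 0, but 6 without the filter and DESeq2 59. Rbfox2 kept its direction in every fit and was called by DESeq2 alone, at -1.03. The cause of these shifts was not tested.

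Small values changed sign. With library totals the log2 fold changes were 0.0205 for Ddit3, 0.0779 for Trib3 and 0.0598 for P4hb, and the differences in mean CPM 0.133 for Ddit3 and 0.288 for Trib3; Atf4 was at -0.0322 without KO 1 and WT 1. With 1 library left out, log2 fold changes ran from -0.49 to 0.0143 for Herpud1, -0.0519 to 0.24 for Atf4, -0.22 to 0.0143 for Ddit3, -0.27 to 0.0540 for Trib3, -1.21 to 0.0077 for Chac1, -0.56 to 0.0588 for Hspa1a and -0.0210 to 0.12 for Hspd1. Differences in mean CPM ran from -129 to 6.10 for Herpud1, -1.63 to 9.54 for Atf4, -1.36 to 0.0811 for Ddit3, -0.877 to 0.203 for Trib3 and -0.362 to 0.0107 for Chac1. Of 295 other fold changes under alternatives, 290 kept their sign and call, and the correlations gave 0 adjusted calls throughout. Leaving the Mup genes out, chosen after seeing the data, changed no call.

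Equal sample numbers belong to different mice. The correlations of same-numbered samples' deviations were 0.163, 0.0484 and 0.170, so the numbers were not taken to pair the mice. With the replicate block 0 members were at an unadjusted p of 0.05 and Atf4 was at -0.0239; edgeR called 0 genes with or without it. Atf3, Asns and Chac1 had 5 to 203 reads per library, which limits the precision of their values.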

Other observations

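The share of counts from 21 major urinary protein (Mup) genes, abundant secreted liver proteins, was compared with the chaperone and XBP1 genes after it was seen to vary. It was 17.8, 21.7, 35.3, 24.4 and 17.9% in WT 1 to 5, and 6.54, 23.0 and 24.7% in KO 1 to 3. Over the 8 livers 4 relations were computed, and both measures come from the same libraries. With Dnajb9 r was 0.80 (exact permutation p = 0.0148, adjusted p = 0.0296) and rho 0.88 (exact permutation p = 0.00724, adjusted p = 0.029), and r was 0.79 without KO 1 and WT 3, the livers at the extremes of the share. With Hspa5 r was 0.90 (exact permutation p = 0.00536, adjusted p = 0.0214), rho 0.69 (exact permutation p = 0.0694, adjusted p = 0.0694) and r 0.46 without KO 1 and WT 3, so the relation rests on those livers. With Herpud1 r was 0.65 (exact permutation p = 0.0719, adjusted p = 0.0958) and rho 0.79 (exact permutation p = 0.0279, adjusted p = 0.0559). With Xbp1 r was 0.35 (exact permutation p = 0.361, adjusted p = 0.361) and rho 0.74 (exact permutation p = 0.0458, adjusted p = 0.0611). Among these 4 genes a relation was thus seen most evenly for Dnajb9, and its cause was not tested. The adjusted p cover these 4 relations only, and how many of all genes follow the share as closely was not determined. Mup10 (r = 0.96) and Mup1 (r = 0.95) were among the genes nearest to Hspa5 in these same libraries. The p-values for the share and Hspa5 are therefore not an independent test of their relation. The TMM factor that scales the CPM was highest in KO 1 (1.29), with the lowest share, and lowest in WT 3 (0.821), with the highest. Its part in these relations was not tested.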
